A study of Homo sapiens with 32 samples.

Results

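The comparison described here was between HEK293 cells that had been targeted for deletion of a distal DNA element named E7 and HEK293 control cells. It covered 4 of the 32 samples of the series, chosen by title: 2 RNA libraries labelled as controls and 2 labelled as E7. Control cells had received Cas9-GFP with an empty guide vector, E7 cells had received Cas9-GFP with guides directed at the element, and all were sorted for GFP and expanded from single cells. The control libraries were labelled as control clone 1 and control clone 2, whereas both E7 libraries carry the label of deletion clone 1, so they may be repeats of a single clone. Cells were grown near confluence in DMEM with serum, and all 4 RNA samples were extracted on the day labelled E. The labels do not state where the deleted element lies, and no count in these files reads the deletion itself, so the deletion could not be checked.

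HEK293 is a line of human embryonic kidney cells transformed with adenovirus DNA. It expresses many genes typical of neurons, and its chromosome number is abnormal and varies between sublines. E7 is known as an element of the 8q24 region, where MYC lies in a long stretch with few other coding genes. MYC encodes a transcription factor that pairs with MAX, binds E-box letters and drives ribosome production, metabolism and division. MXI1 and related proteins compete with it for MAX.

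Each file listed counts for the same 11887 genes, and the totals per library ran from 26491576 to 34790193. Of these genes, 11806 passed the filter on low counts and were tested. Levels are in CPM, the counts of a gene relative to the summed counts of the listed genes, with library sizes scaled by TMM, a factor that offsets differences in composition. The E7 libraries resembled each other closely, with a Pearson r of 0.993 across genes on the log2 CPM scale, against 0.946 for the control clones. The E7 libraries were not copies of 1 deposit, since they differed by more than counting noise (chi-square of 18.99 per degree of freedom). That does not show separate clones. They entered the test as 2 samples because their titles number them 1 and 2, although both carry 1 clone label. If they are repeats of 1 clone, the p-values given here do not measure the spread between E7 clones. A fit with their counts summed as 1 clone is given among the alternatives. Each E7 library was nearer to control 1 (r of 0.966 in both) than the controls were to each other. Values are therefore given for each E7 library against each control, which makes 4 library pairs.

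MYC (ENSG00000136997.10, chromosome 8) was lower in both E7 libraries than in both controls. Its level was 66.8 CPM in control 1, 165 CPM in control 2, 22.7 CPM in E7 library 1 and 24.1 CPM in E7 library 2. The groups did not overlap, and the controls were farther apart than either E7 library was from control 1 in CPM. The log2 ratios to control 1 were -1.56 and -1.47, and those to control 2 were -2.86 and -2.77. The fitted log2 difference was -2.31 (SE 0.45), which did not pass in edgeR (adjusted p = 0.222) and passed in DESeq2 (adjusted p = 5.18e-06).

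Of the other 8q24 genes that flank MYC, 16 were tested. Together with MYC, 14 of the 17 were lower in both E7 libraries than in both controls and none was higher in both, against 24.6% of all tested genes below and 24.1% above. Of the 17, 16 were placed in a segment of distal chromosome 8 that is given below. In that segment as a whole, 53 of 85 tested genes (62.4%) were below both controls and none above. The medians of the 17 log2 ratios were -0.26 and -0.23 against control 1 and -0.58 and -0.48 against control 2, and no member passed in edgeR. TRIB1, a pseudokinase that directs protein degradation, stood at 37.1 and 60.2 CPM in controls 1 and 2 and at 20.2 and 20.5 CPM in the E7 libraries, a log2 difference of -1.26 (SE 0.28). SQLE, an enzyme of cholesterol synthesis, stood at 190 and 288 CPM in the controls and at 88.3 and 119 CPM in the E7 libraries. TRIB1 and SQLE were the nearest to MYC in the size of their difference. CYRIB, a regulator of the actin cytoskeleton, was at -0.73 on the log2 scale. NDUFB9, a subunit of respiratory complex I, was at -0.79 and TATDN1 at -0.77, both mostly through control 2. The tRNA methyltransferase gene TRMT12 was at -0.71 and the SUMO ligase gene NSMCE2 at -0.51. The remaining members were closer to no difference. DERL1, a factor of protein export from the endoplasmic reticulum, was at -0.38, ZHX1 at -0.33, TMEM65 at -0.28, RNF139 at -0.28, ZHX2 at -0.26 and WASHC5 at -0.13. The chromatin ATPase gene ATAD2 (-0.11), ASAP1 (0.07) and LRATD2 (0.09) overlapped between the groups. MYC was the sole member past 2-fold in all 4 pairs.

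At an adjusted p of 0.05, edgeR called 3 of the 11806 genes (0.0254%), with 1 higher (0.00847%) and 2 lower (0.0169%). An unadjusted p below 0.05 was found for 1487 genes (12.6%), with 553 higher (4.68%) and 934 lower (7.91%). DESeq2 called 463 (3.92%). NEFM (ENSG00000104722.9, chromosome 8), which encodes the medium neurofilament subunit of the neuronal cytoskeleton, was the gene that rose. It was near absent in the controls, at 0.626 and 0.718 CPM, and reached 34.7 and 28.2 CPM in the E7 libraries, a log2 difference of 5.54 (SE 0.28, edgeR adjusted p = 0.0198). PKP3 (ENSG00000184363.5, chromosome 11), which encodes plakophilin 3 of desmosomes, fell from 41.3 and 51.4 CPM to 0.195 and 0.25 CPM. Its log2 difference was -7.68 (SE 0.31, edgeR adjusted p = 0.0125). MAOA (ENSG00000189221.5, chromosome X), which encodes the monoamine-degrading enzyme monoamine oxidase A, fell from 58.5 and 50.5 CPM to 5.3 and 5.94 CPM, a log2 difference of -3.28 (SE 0.21, edgeR adjusted p = 0.0492). In each of these genes the controls lay close together and the E7 libraries far from both, a pattern that a call in edgeR favours. MAOA did not pass with library sizes left unscaled (edgeR adjusted p = 0.0671) or with a minimum of 50 counts in 2 libraries (0.0508).

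A description with no test asked which genes differed at least 2-fold, in 1 direction, in all 4 library pairs, among the 10957 genes whose higher group averaged 5 CPM or more. There were 159 such genes (1.45%), with 73 higher genes (0.666%) and 86 lower genes (0.785%). At a 3-fold limit there were 24 higher and 24 lower.

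The lower genes with the largest differences were nearly silent in the E7 libraries. TMEM47, a protein of cell junctions, had 164 and 41.5 CPM in the controls and 0.028 and 0.063 CPM in the E7 libraries. That is 5742 counts in the controls against 3, a ratio of 2306 with an exact 95% interval of 788.7 to 11180 that covers counting error only. SOX11, a transcription factor of neural progenitors, had 351 and 110 CPM in the controls and 1.26 and 0.75 CPM in the E7 libraries. PSMD5, an assembly factor of the proteasome, had 64.7 and 14.4 CPM against 0.558 and 0.407 CPM. In these genes control 2 was the lower control, yet it remained far above both E7 libraries. PNPLA4, a lipase-related gene, had 554 counts in the controls (7.62 and 13.4 CPM) and none in either E7 library. With the floor taken as 3 counts over the group, it was 222.5-fold lower. The exact 95% interval of the ratio of controls to E7 libraries has a lower limit of 180.3-fold. PUDP, a pseudouridine phosphatase, had 19.2 and 50.9 CPM in the controls and 0.223 and 0.094 CPM in the E7 libraries. PUDP and PNPLA4 neighbour each other on chromosome X among the tested genes, while the next tested gene, ANOS1, was at -0.11 on the log2 scale.

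B3GALNT1, a glycosyltransferase of globoside synthesis, had 5.67 and 17 CPM in the controls against 0.112 and 0 CPM. ZNF700, a zinc finger gene on chromosome 19, had 9.85 and 7.9 CPM against 0.168 and 0.063 CPM. EDA2R, a receptor of ectodysplasin A2, had 13.4 and 10.3 CPM against 0.558 and 0.469 CPM. QPRT, an enzyme of NAD synthesis from tryptophan, had 32.9 and 46.4 CPM against 2.62 and 3.47 CPM. The antisense transcript VPS9D1-AS1 had 19.3 and 9.3 CPM against 0.977 and 0.5 CPM, although it is unknown whether counting used strand, and its host gene VPS9D1 was at -0.15 on the log2 scale. Tested genes on either side of 2 called genes had smaller differences. Beside PKP3, B4GALNT4 was at -1.28 and PTDSS2 at -0.21. B4GALNT4 had 29.6 and 32.6 CPM in the controls against 12.1 and 13.5 CPM, so it was itself past 2-fold lower in each pair. Further out, IFITM3 was at -0.73 and RNH1 at -0.35. Beside MAOA, CASK was at 0.32 and FUNDC1 at -0.28. Structural RNAs were also among the 86 lower genes, including the 7SK RNA and SNORD3A, which are named here after their values were seen.

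Most of the 12 higher genes with the largest differences are named here. GPR50, an orphan receptor related to the melatonin receptors, had 2.92 and 0.239 CPM in the controls and 179 and 229 CPM in the E7 libraries. An unnamed gene, ENSG00000269993, had 0.696 and 0.239 CPM in the controls and 44.5 and 59.6 CPM in the E7 libraries. It missed the edgeR threshold narrowly, with an adjusted p of 0.0528. GFRA3, a co-receptor of the GDNF family ligand artemin, had 1.25 and 0.439 CPM against 9.21 and 10.4 CPM. MRC2, a collagen receptor, had 10.5 and 5.79 CPM against 58.7 and 77 CPM. In all of these, control 2 was lower than control 1. TFPI2, a protease inhibitor of the matrix, had 6.12 and 4.35 CPM against 37.9 and 33.2 CPM. FLNC, a filamin that crosslinks actin, had 22.5 and 4.07 CPM against 113 and 115 CPM. The secreted protein gene OLFM2, the dipeptidyl peptidase gene DPP7 and the kinesin light chain gene KLC3 lay between 1.8 and 4.55 CPM in the controls and between 12.5 and 22.3 CPM in the E7 libraries.

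**Figure D1:**
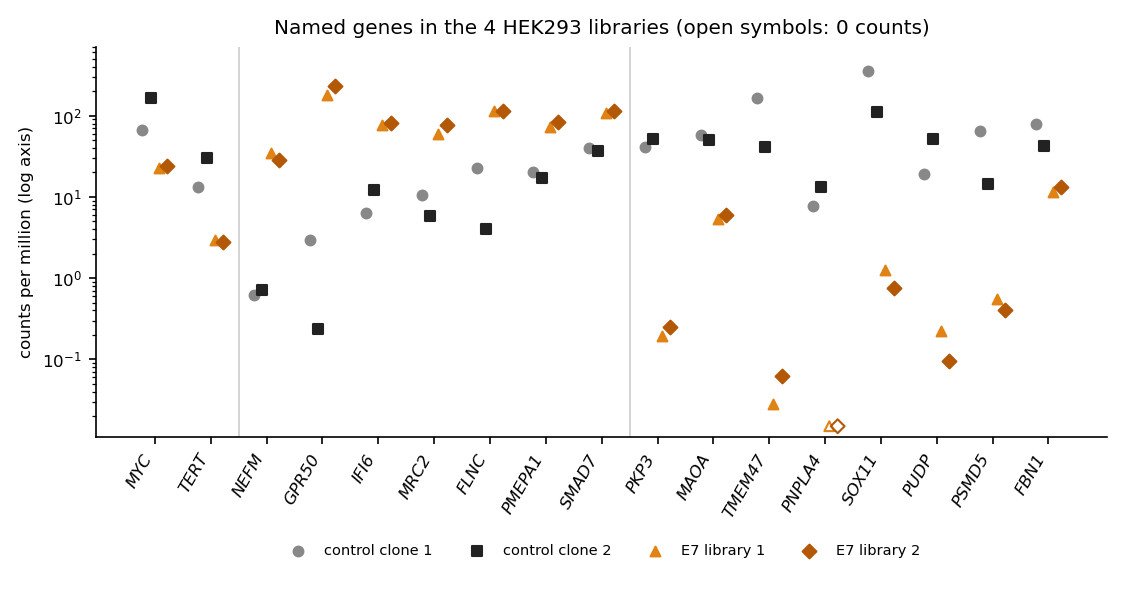
Level of 17 named genes in CPM (log axis) in the 2 control libraries (grey and black) and the 2 E7 libraries (orange), 1 symbol a library, with open symbols at the base for 0 counts. MYC and TERT and the genes to the right of the second line are lower in both E7 libraries, the genes between the lines are higher, and PNPLA4 has 0 counts in both E7 libraries.

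The number of genes that differed depended strongly on the control. Against control 1, 374 genes (3.42%) were past 2-fold in E7 library 1, with 154 higher (1.41%) and 220 lower (2.01%). E7 library 2 had 350 (3.2%), with 178 higher (1.63%) and 172 lower (1.57%). Against control 2, E7 library 1 had 1542 (14%), with 766 higher (6.95%) and 776 lower (7.04%), and E7 library 2 had 1136 (10.3%), with 614 higher (5.58%) and 522 lower (4.74%). The choice of control thus moved the number by over 3 times. Control 2 itself differed from control 1 at 1050 genes (9.54%), with 442 higher (4.02%) and 608 lower (5.53%). E7 library 2 differed from E7 library 1 at 16 genes (0.147%), with 5 higher (0.0461%) and 11 lower (0.101%). Without scaling of library sizes the split between the controls was 308 higher and 785 lower. Of the genes past 2-fold in both E7 libraries against control 1, 73 of 119 higher genes (61.3%) and 85 of 129 lower genes (65.9%) were past 2-fold the same way against control 2. Counted from control 2, the shares were 13.7% of 533 higher genes and 17.6% of 483 lower genes. These comparisons share the E7 libraries, so the overlap is a description. MYC was lower against either control.

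Among the genes that set control 2 apart, CSRP1, a LIM-domain protein of the cytoskeleton, had 39.9 CPM in control 1, 0.639 CPM in control 2 and 39.2 and 42.3 CPM in the E7 libraries. SPARC, a matrix glycoprotein, had 41.2, 0.958, 60.4 and 67.2 CPM in the same order. COL12A1, a collagen, had 46.3, 3.31, 43.5 and 42.3 CPM. For these genes control 1 stood with the E7 libraries. PCDH17, a protocadherin, and MYD88, an adaptor of innate immune receptors, were low in control 2 too, at 0.279 and 0.399 CPM. They were also past 2-fold higher in the E7 libraries than in control 1, where they had 11.2 and 11.3 CPM. BNC1, an epithelial zinc finger gene, was at 0.519 CPM in control 2 and at 9.6 CPM in control 1. In the other direction, FBXL16 had 2.3 CPM in control 1, 33.8 CPM in control 2 and 1.56 and 1.94 CPM in the E7 libraries. CALCB, which encodes a calcitonin gene-related peptide, had 14.4, 131, 4.75 and 5.25 CPM. MATK, a kinase that restrains SRC, had 4.14, 21.3, 1.48 and 2.16 CPM, and CITED4 had 1.08, 7.14, 1.23 and 2.28 CPM. For CALCB and MATK both E7 libraries were also below control 1.

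**Figure D2:**
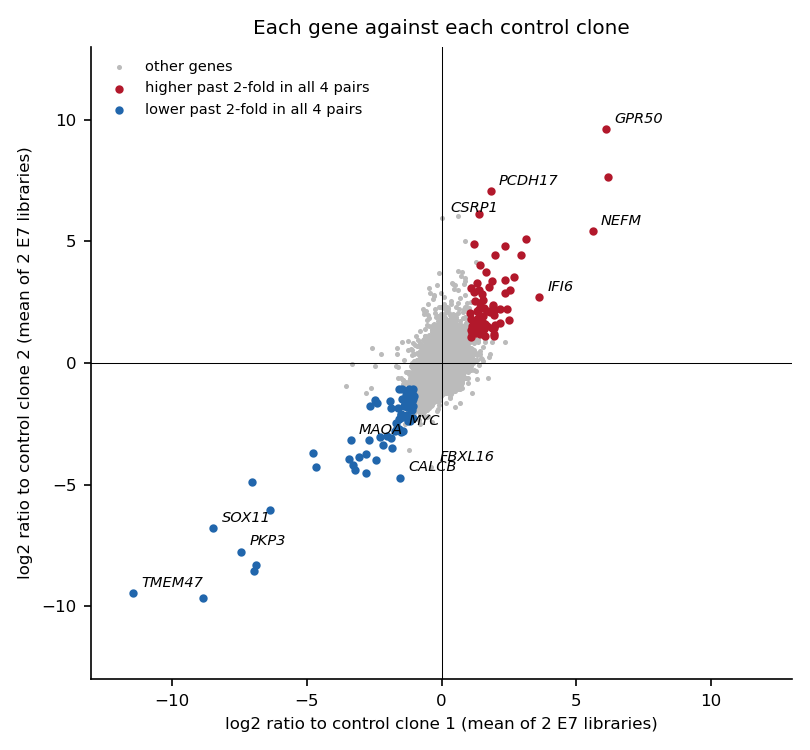
Each point is a gene whose higher group averaged 5 CPM or more, with the mean log2 ratio of the 2 E7 libraries to control clone 1 on the x axis and to control clone 2 on the y axis. The 73 higher genes (red) and 86 lower genes (blue) are past 2-fold in all 4 pairs, and genes such as CSRP1 lie near 0 on the x axis and far from 0 on the y axis.

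MYC target genes were lower against control 2 and close to no difference against control 1. Of 51 tested genes widely used as MYC targets, 27 (52.9%) were lower in both E7 libraries than in both controls and 3 higher, against 24.6% and 24.1% of all tested genes. The medians were -0.03 and -0.11 against control 1 and -0.51 and -0.52 against control 2, and control 2 was above control 1 by a median of 0.44. No member passed in edgeR. TERT, the catalytic subunit of telomerase, was the member past 2-fold in all 4 pairs, with 13.2 and 29.8 CPM in the controls and 2.96 and 2.81 CPM in the E7 libraries (log2 difference -2.89, SE 0.44, edgeR adjusted p = 0.193). Its order over the libraries was that of MYC: control 2 highest, control 1 next, the E7 libraries lowest and close together. NIP7, a factor of ribosome assembly, had 87.5 and 99.2 CPM in the controls and 52.2 and 52.8 CPM in the E7 libraries. NIP7, TFAP4 and PLK1 lie on chromosome 16, whose genes were lower as a whole, as given below. NCL (nucleolin), ODC1 (polyamine synthesis) and CAD (pyrimidine synthesis), which belong to the same list, were at -0.16, -0.13 and 0.10 on the log2 scale.

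The E-box letters CACGTG, whose reverse complement is the same, were found in the promoters of 19 of 43 MYC targets (44.2%) and in 943 of 9006 tested genes (10.5%) for which RefSeq gives a promoter of 250 bases before to 50 after the start. The promoter of TERT is shown because TERT was the MYC target that was lower in every pair. It lies at chr5:1295019-1295318 on the minus strand (GRCh38.p14). Capitals mark the 1 full E-box match in this stretch, whose first base is 163 bases before the start. The stretch ends in the letters cacgt, and a match that runs past its end was not searched for.
TERT: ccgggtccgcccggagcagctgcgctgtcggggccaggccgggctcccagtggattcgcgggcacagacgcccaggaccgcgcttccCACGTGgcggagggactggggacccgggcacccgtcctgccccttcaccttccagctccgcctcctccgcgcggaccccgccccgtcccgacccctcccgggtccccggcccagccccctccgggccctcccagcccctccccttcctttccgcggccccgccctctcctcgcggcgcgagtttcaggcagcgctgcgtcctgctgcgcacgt
The match is a description of the letters, and binding was not measured in these cells.

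The genes of MYC's own network were divided. Of 11 tested members, 4 (36.4%) were above both controls in both E7 libraries and 5 (45.5%) below, against 24.1% and 24.6% of all tested genes. MXI1, a competitor of MYC for MAX, had 53 and 60.6 CPM in the controls and 38 and 36.1 CPM in the E7 libraries.

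Genes of the ribosome showed how far control 2 stood from the other libraries. The 75 ribosomal protein genes summed to 46926 CPM in control 1, 92114 CPM in control 2, 43622 CPM in E7 library 1 and 47177 CPM in E7 library 2. Their median log2 ratio was -0.03 and 0.04 against control 1 and -1.05 and -0.95 against control 2. Single ribosomal protein genes share reads with near-identical pseudogenes and are not named. Ribosome biogenesis genes followed the same pattern with smaller values, with medians of 0.05 and -0.06 against control 1 and -0.33 and -0.36 against control 2. Of 59 members, 23 (39%) were below both controls and 5 (8.47%) above, against 24.6% and 24.1% of all tested genes. Mitochondrially encoded genes were also highest in control 2, with sums of 24484, 32979, 24597 and 28866 CPM in the order control 1, control 2, E7 library 1 and E7 library 2. Whether the composition of the control 2 library has a part in the lower MYC target levels was not tested.

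Median differences of replication and division genes were small. Of 45 replication and E2F genes, 17 (37.8%) were below both controls and 6 (13.3%) above. Of 45 mitotic genes, 20 (44.4%) were above and 6 (13.3%) below. Among all tested genes, 24.6% were below both controls and 24.1% above. Outside chromosomes 16 and 20 and distal chromosome 8, given below, 10 of 38 replication genes (26.3%) were below both controls and 6 (15.8%) above. Of the 40 mitotic genes outside them, 2 (5%) were below and 20 (50%) above. The shares of all genes outside them were 20.3% below and 26% above. Medians of the full lists over the 4 pairs ran from -0.31 to -0.05 for replication and from 0.05 to 0.14 for mitosis. Nucleotide and polyamine synthesis had 13 of 25 members (52%) below both controls and 1 (4%) above. No gene of these lists was past 2-fold in all 4 pairs.

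**Figure D3:**
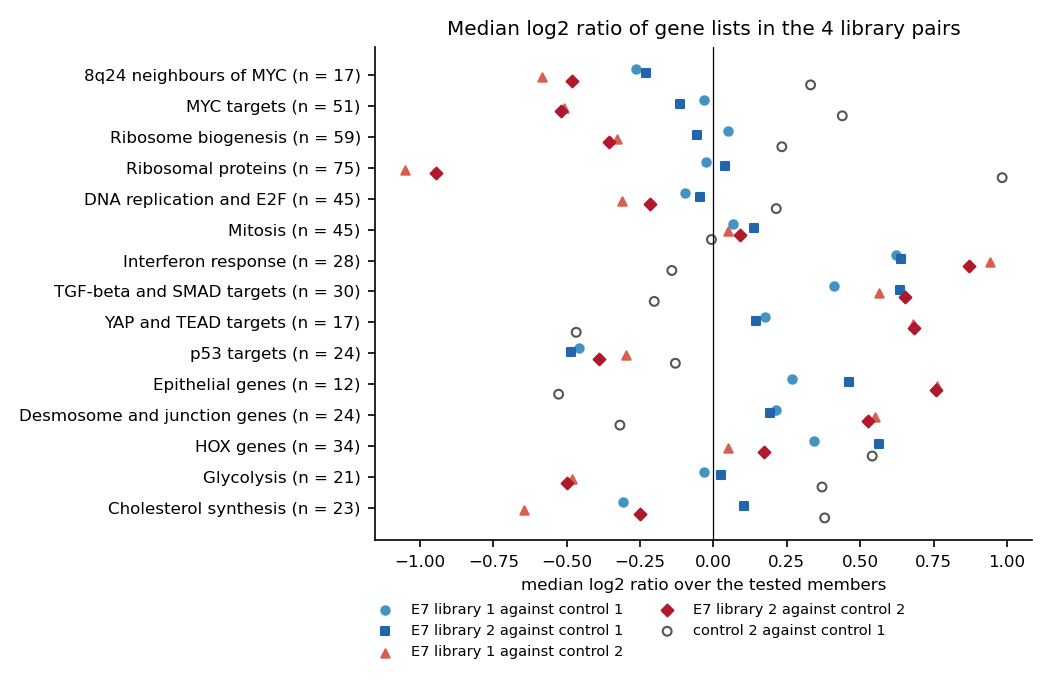
Median log2 ratio of the tested members of 15 gene lists in each of the 4 library pairs (filled symbols) and between the controls (open circles). Against either control the medians are above 0 for the interferon and TGF-beta lists and below 0 for the p53 and 8q24 lists, while the ribosomal protein genes are near 0 against control 1 and near -1 against control 2.

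Interferon response genes were higher in the E7 libraries against either control. These genes are induced when interferon binds its receptors, or when sensors such as RIGI bind viral RNA. Of 28 tested members, 22 (78.6%) were above both controls in both E7 libraries and 2 (7.14%) below, against 24.1% and 24.6% of all tested genes. The medians were 0.62 and 0.64 against control 1 and 0.94 and 0.87 against control 2. The list held 4 genes past 2-fold in all 4 pairs, IFI6, IFIT1, SAMD9 and OAS3. None of the 28 passed in edgeR (lowest adjusted p 0.143), 13 had an unadjusted p below 0.05 and were higher (4.68% of all tested genes), and DESeq2 called 10 higher and none lower (3.92% of all tested genes in either direction).

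IFI6, a mitochondrial protein induced by interferon, had 6.33 and 12.1 CPM in the controls and 76.4 and 80.1 CPM in the E7 libraries (log2 difference 3.09, SE 0.35, edgeR adjusted p = 0.143). IFIT1, which binds viral RNA caps, had 3.51 and 5.79 CPM in the controls and 14.5 and 27.7 CPM in the E7 libraries. SAMD9, an antiviral factor on chromosome 7, had 13.7 and 4.43 CPM against 35.2 and 35.8 CPM. The tested genes that follow it on that chromosome were VPS50 at 0.66, TFPI2 at 2.76, GNG11 at 0.81 and BET1 at -0.11 on the log2 scale. OAS3, a sensor of double-stranded RNA, had 15.7 and 1.2 CPM against 31.6 and 41.9 CPM. For OAS3 most of the fitted difference came from control 2. RIGI, the RNA sensor, had 7.66 and 6.9 CPM in the controls and 14.8 and 18.1 CPM in the E7 libraries. Not every member took this direction: IFITM2 and IFITM3, which block virus entry, were at -1.04 and -0.73, and the groups overlapped for ISG15, with 4.38 and 11.1 CPM in the controls and 9.1 and 17 CPM in the E7 libraries. MHC class I genes, which interferon also induces, had 6 of 17 members (35.3%) above both controls and 1 (5.88%) below. The shares of all tested genes were 24.1% and 24.6%. The medians of the MHC class I genes lay between -0.01 and 0.30.

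The promoters of IFI6, IFIT1 and SAMD9 are shown as 3 of the 4 members past 2-fold higher in every pair, with the letters of an interferon stimulated response element. The promoter of OAS3, the other member, holds 2 matches and is not printed. These letters, GAAA followed by any 2 bases and GAAA again, searched on both strands, were found in the promoters of 16 of 23 interferon response genes (69.6%) and of 216 of 9006 tested genes (2.4%). All 3 promoters come from RefSeq with the build GRCh38.p14, read 5′ to 3′ along the gene, with the matches in capitals. They lie at chr1:27672143-27672442 (minus strand), chr10:89392373-89392672 (plus strand) and chr7:93117930-93118229 (minus strand), in the order printed.
IFI6: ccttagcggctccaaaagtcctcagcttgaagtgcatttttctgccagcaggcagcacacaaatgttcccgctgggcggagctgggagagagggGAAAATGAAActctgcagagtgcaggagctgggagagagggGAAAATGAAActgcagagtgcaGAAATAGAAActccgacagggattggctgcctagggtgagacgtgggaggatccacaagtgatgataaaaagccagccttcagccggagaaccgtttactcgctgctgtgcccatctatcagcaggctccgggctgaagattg
IFIT1: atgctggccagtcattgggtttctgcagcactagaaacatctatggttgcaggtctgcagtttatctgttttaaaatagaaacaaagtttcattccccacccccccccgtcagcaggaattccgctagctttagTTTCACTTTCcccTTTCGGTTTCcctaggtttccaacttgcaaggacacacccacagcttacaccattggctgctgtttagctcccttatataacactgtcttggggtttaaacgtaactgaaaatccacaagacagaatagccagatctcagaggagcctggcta
SAMD9: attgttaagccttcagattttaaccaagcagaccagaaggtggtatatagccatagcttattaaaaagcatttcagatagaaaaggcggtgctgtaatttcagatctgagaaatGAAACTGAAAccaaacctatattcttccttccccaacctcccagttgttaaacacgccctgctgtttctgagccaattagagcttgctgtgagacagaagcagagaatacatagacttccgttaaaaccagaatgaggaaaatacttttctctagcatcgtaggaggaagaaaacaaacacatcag
IFI6 holds 3 matches, with first bases 156, 115 and 93 bases before the start, IFIT1 holds 2 on the opposite strand, at 116 and 103 bases, and SAMD9 holds 1 at 136 bases. A match is a description of the letters, since no factor's binding was measured in these cells.

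Of the targets of TGF-beta, BMP and SMAD proteins, more were higher in the E7 libraries than lower. TGF-beta and BMP ligands signal through receptor kinases to SMAD proteins, and SMAD7 and PMEPA1 are induced inhibitors of that signal. Of 30 tested genes, 17 (56.7%) were above both controls in both E7 libraries and 5 (16.7%) below, against 24.1% and 24.6% of all tested genes. The medians of the 4 pairs lay between 0.41 and 0.65, no member passed in edgeR (lowest adjusted p 0.101), and DESeq2 called 10 higher and 2 lower, against 3.92% of all tested genes in either direction. PMEPA1 had 20 and 17.1 CPM in the controls and 71.8 and 82.7 CPM in the E7 libraries (log2 difference 2.06, SE 0.20), although it lies on chromosome 20, whose genes were lower as a whole. SMAD7 had 39.5 and 36.9 CPM in the controls and 108 and 113 CPM in the E7 libraries (log2 difference 1.53, SE 0.18). CDKN2B, an inhibitor of cyclin-dependent kinases, had 28.8 and 34.1 CPM against 80.7 and 73.8 CPM. In these 3 genes, named for a small p in their list, the controls were close to each other.

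CCN1 and CCN2, matricellular proteins that are targets of both SMAD and YAP, were higher as well. CCN1 had 14.7 and 13.8 CPM against 50.6 and 36.8 CPM, and CCN2 had 8.25 and 3.95 CPM against 53.3 and 33.4 CPM. Both were higher in E7 library 1 than in E7 library 2. ID1 had 16.7 and 36.9 CPM in the controls and 6.31 and 4.97 CPM in the E7 libraries, and ID3 had 54.6 and 142 CPM against 22.1 and 18.9 CPM. Both inhibit basic helix-loop-helix factors and were higher in control 2 than in control 1. With ID2 and ID4, at -0.49 and -0.61 on the log2 scale, they made up 4 of the 5 members below both controls, a grouping made after the values were seen. Among the YAP and TEAD targets, 10 of 17 (58.8%) were above both controls and 1 (5.88%) below, against 24.1% and 24.6% of all tested genes. CCN1 and CCN2 were the members of that list past 2-fold in all 4 pairs.

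Targets of p53 were lower against either control. As background, HEK293 carries adenovirus genes whose proteins are known to bind p53, and p53 activity was not measured here. Of 24 tested targets, 16 (66.7%) were below both controls in both E7 libraries and none above, against 24.6% and 24.1% of all tested genes, with medians from -0.49 to -0.30. No member passed in edgeR (lowest adjusted p 0.193), 9 had an unadjusted p below 0.05 and were lower (7.91% of all tested genes), and DESeq2 called 4 lower (3.92% of all tested genes in either direction). FDXR, a ferredoxin reductase of mitochondria, had 43.3 and 44.5 CPM in the controls and 19.6 and 19.4 CPM in the E7 libraries and was the member past 2-fold in all 4 pairs (log2 difference -1.17, SE 0.18). DDB2, a sensor of UV damage, had 34.6 and 34 CPM against 16.9 and 17.5 CPM. BTG2, an inhibitor of growth, had 96.8 and 64.2 CPM against 32.7 and 38.7 CPM, and BAX, which opens mitochondria in apoptosis, had 90.7 and 120 CPM against 55.8 and 58.1 CPM. The canonical targets CDKN1A and MDM2 did not separate the groups. CDKN1A had 103 and 76.5 CPM in the controls and 74.8 and 89.4 CPM in the E7 libraries, and MDM2 had 261 and 133 CPM against 192 and 182 CPM.

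Epithelial and junction genes were more often higher than lower in the E7 libraries, and PKP3, a member of the junction list, fell. Of 12 epithelial genes 8 were above both controls and none below, and of 24 desmosome and junction genes 16 (66.7%) were above and 2 below, against 24.1% and 24.6% of all tested genes. EPCAM, a surface adhesion protein of epithelia, had 131 and 80.9 CPM in the controls and 210 and 224 CPM in the E7 libraries. CGN, cingulin of tight junctions, had 27.8 and 27.1 CPM against 45.5 and 47 CPM. KRT19, a keratin, had 97.4, 13.6, 136 and 192 CPM over control 1, control 2 and the E7 libraries, so control 2 again stood lowest. The medians of the epithelial list were 0.27 and 0.46 against control 1 and 0.76 in both pairs against control 2. Those of the junction list were 0.21 and 0.19 against control 1 and 0.55 and 0.53 against control 2, so both lists differed more from control 2.

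Mesenchymal genes were mixed, with 8 of 22 (36.4%) above both controls and 6 (27.3%) below, against 24.1% and 24.6% of all tested genes. FBN1, fibrillin of elastic matrix, had 79 and 41.9 CPM in the controls and 11.4 and 13.4 CPM in the E7 libraries (log2 difference -2.28, SE 0.35). ACTA2, smooth muscle actin, had 8.53 and 8.62 CPM against 3.41 and 4.1 CPM. VIM, vimentin, had 702 and 861 CPM against 752 and 817 CPM and overlapped between the groups.

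Genes of the neuron-like cytoskeleton went both ways beside NEFM. Of 25 tested members 8 (32%) were above both controls and 9 (36%) below, against 24.1% and 24.6% of all tested genes. INA, another neuronal intermediate filament, had 30.1 and 7.54 CPM in the controls and 75 and 73 CPM in the E7 libraries. STMN3, which destabilises microtubules, had 52.6 and 80.1 CPM against 15.7 and 21.6 CPM and lies on chromosome 20. DPYSL4, a collapsin response mediator, had 7.97 and 7.9 CPM against 1.95 and 2.38 CPM. GAD1, which makes the transmitter GABA, had 18.5 and 18.8 CPM in the controls and 49.8 and 40.1 CPM in the E7 libraries. Axon guidance genes had 14 of 36 members (38.9%) above both controls and 7 (19.4%) below.

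The HOX genes, which mark position along the body axis, were higher in part. Of 34 tested genes 16 (47.1%) were above both controls and 2 below, against 24.1% and 24.6% of all tested genes. The medians were 0.34 and 0.56 against control 1 and 0.05 and 0.17 against control 2. The HOXA genes lie on chromosome 7, whose genes as a whole had a median of 0.60 against control 1, and the HOXB genes on chromosome 17, with 0.30 and 0.33 against control 2. The part of these shifts in the list's medians was not tested. On chromosome 2, HOXD10 had 73.1 and 77.1 CPM in the controls and 216 and 204 CPM in the E7 libraries (log2 difference 1.48, SE 0.18). HOXD11 had 36.1 and 33.4 CPM against 88.4 and 77.2 CPM, and HOXD9 had 34.1 and 63.5 CPM against 97.4 and 102 CPM. HOXD10 and HOXD11 were the members past 2-fold in all 4 pairs. Immediate early genes were mixed, with IER3, a stress-induced survival factor, at 14.2 and 11 CPM in the controls and 37.6 and 46.2 CPM in the E7 libraries.

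Metabolic lists depended on the control and in part on the E7 library. Glycolysis genes had medians of -0.03 and 0.03 against control 1 and -0.48 and -0.50 against control 2. HK2, hexokinase 2, had 89.5 and 93.2 CPM in the controls and 48.4 and 45.4 CPM in the E7 libraries. ENO2, the neuronal enolase, went the other way, with 43.3 and 47.1 CPM against 91.2 and 96 CPM. Of 21 hypoxia response genes 11 (52.4%) were below both controls and 5 (23.8%) above, against 24.6% and 24.1% of all tested genes. NDRG1, a stress-responsive gene of distal chromosome 8, had 84.7 and 83.8 CPM against 33.9 and 37.9 CPM. AARS1, the alanyl-tRNA synthetase and an ATF4 target on chromosome 16, had 195 and 196 CPM against 96.2 and 90.6 CPM. The controls agree closely for these genes, and the E7 libraries lie apart from them. These genes were named for a small p in their lists, which favours such a pattern.

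Cholesterol synthesis genes differed between the E7 libraries themselves, with a median log2 ratio of 0.39 of E7 library 2 to E7 library 1. SREBF1, a factor that activates lipid synthesis genes, had 28.6 and 61.7 CPM in the E7 libraries and 44.7 and 79.9 CPM in the controls. ETV5, a factor downstream of growth factor signals, had 12 and 26.5 CPM in the E7 libraries. SREBF1 in E7 library 2 lay between the controls.

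Marker lists were checked against the label. The 20 listed HEK293 markers, NEFM and SOX11 among them, summed to 3259 and 2556 CPM in the controls and to 3131 and 3155 CPM in the E7 libraries. Of the colon markers CDX2, EPCAM and KRT19 were listed in the files, of the leukocyte markers LCP1, of the endothelial markers EGFL7 and FLT1, and of the fibroblast markers none. The colon markers did not go 1 way: EPCAM and KRT19 were above both controls in both E7 libraries, and CDX2 was below both. LCP1 had sums of 138 and 116 CPM in the controls and 187 and 180 CPM in the E7 libraries. These markers' part in the differences was not tested, and the level of unlisted genes is not analysed here.

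Genes of whole chromosomes differed together. The 528 tested genes of chromosome 16 had a median log2 ratio between -0.66 and -0.64 in every pair, and the controls differed there by 0.03. Of these genes 420 (79.5%) were below both controls in both E7 libraries and 4 above, against 24.6% and 24.1% of all tested genes. Chromosome 16 held 294 of the 934 lower genes with an unadjusted edgeR p below 0.05 and 20 of the 86 genes lower past 2-fold in all 4 pairs, QPRT, VPS9D1-AS1 and AARS1 among them. It held 528 of the 11806 tested genes and 486 of the 10957 genes of 5 CPM or more. Chromosome 20, with 306 tested genes, had medians of -0.34 and -0.29 against control 1 and -0.66 and -0.61 against control 2, and 229 of its genes (74.8%) were below both controls. Its controls differed by 0.34. Without chromosomes 16 and 20 and distal chromosome 8, 71 higher and 56 lower genes past 2-fold in all 4 pairs were left, and edgeR, adjusted over the rest, called 5 genes. Of the MYC targets outside these segments, 23 of 47 (48.9%) were below both controls, against 20.3% of all genes outside them.

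Other chromosomes separated the libraries by control. Chromosome 7 had medians of 0.60 against control 1 in both E7 libraries and of -0.01 and 0.00 against control 2. The controls differed by 0.64 there, so control 2 stood with the E7 libraries. Chromosome 6 had medians of -0.36 against control 1 in both and of 0.06 and 0.08 against control 2, with a difference of -0.44 between the controls. Chromosome 17 had medians of 0.03 and 0.06 against control 1 and of 0.30 and 0.33 against control 2. Chromosome 19 had medians of 0.12 and 0.20 against control 1 and of -0.24 and -0.18 against control 2. Chromosome X had medians between -0.12 and -0.01. Of its 348 genes of 5 CPM or more, 9 were lower past 2-fold in all 4 pairs, against 86 of all 10957 such genes (0.785%). The 9 included TMEM47, PNPLA4, PUDP, EDA2R and MAOA.

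**Figure D4:**
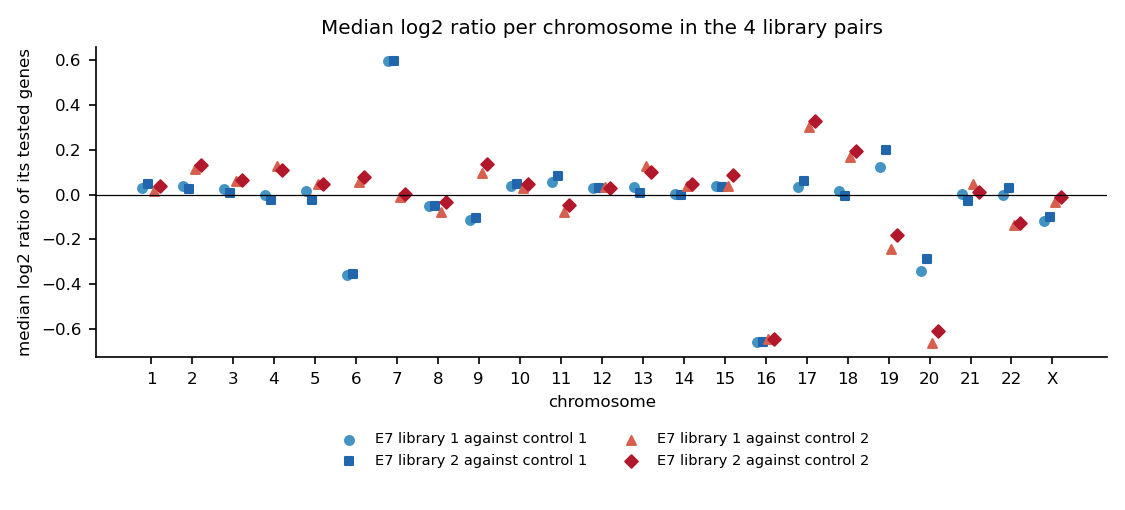
Median log2 ratio of the tested genes of each chromosome in each of the 4 library pairs, 1 symbol a pair. All 4 symbols lie between -0.66 and -0.64 for chromosome 16, chromosome 20 is below 0 in all pairs, and chromosomes 6 and 7 lie at -0.36 and 0.60 against control 1 and within 0.08 of 0 against control 2.

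Some segments within chromosomes had medians apart from 0. These segments were chosen after the values were seen, and their ends were not tested. Distal chromosome 8, from MTBP to C8orf33, held 85 tested genes and includes MYC. Its medians were -0.23 and -0.20 against control 1 and -0.80 and -0.79 against control 2, and control 2 was above control 1 by 0.60. In this segment 53 genes (62.4%) were below both controls and none above, against 24.6% and 24.1% of all tested genes. MYC's log2 ratios of -1.56 and -1.47 against control 1 and of -2.86 and -2.77 against control 2 stood well below the medians of this segment in the same pairs, as did those of TRIB1, at -0.88 and -0.85 against control 1 and -1.58 and -1.55 against control 2. At the start of chromosome 16, from NME4 to FLYWCH1, 66 of 76 genes (86.8%) were below both controls, with medians of -0.71 and -0.70 against control 1 and -1.06 and -1.04 against control 2. On chromosome 9, 166 genes from ANXA1 to GAPVD1 had medians of -0.33 and -0.34 against control 1 and 0.09 and 0.11 against control 2. The part of these segments in the values of single genes on them was not tested.

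**Figure D5:**
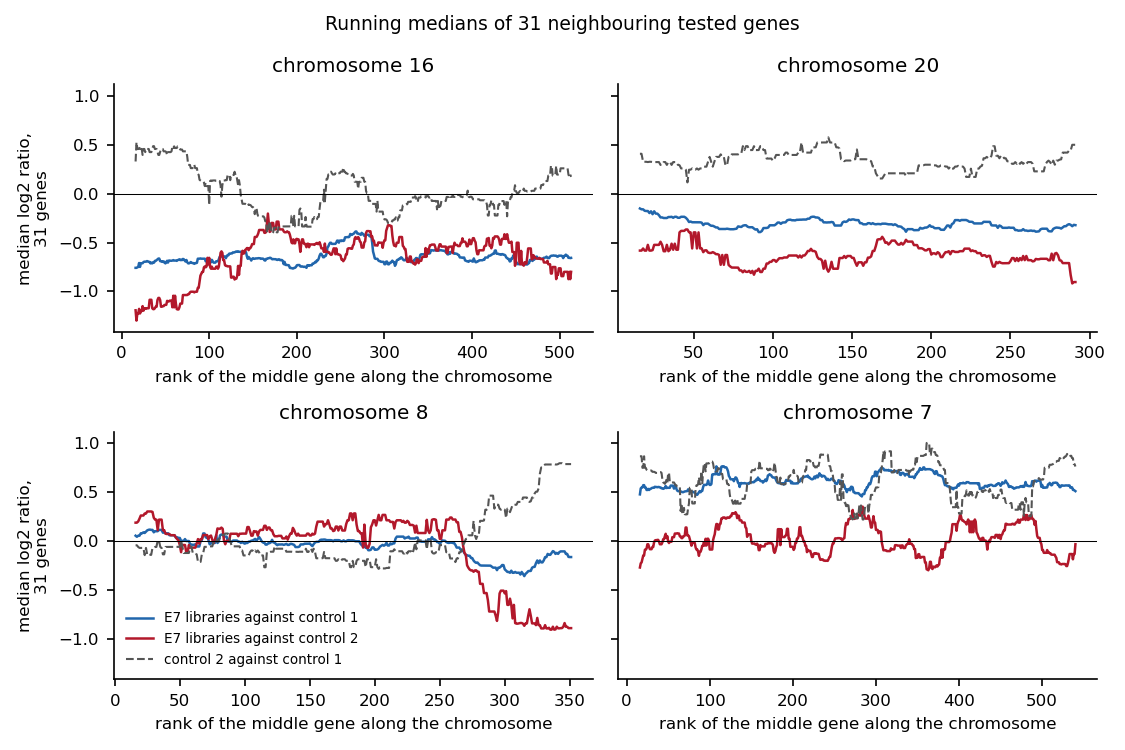
Running medians of 31 neighbouring tested genes along chromosomes 16, 20, 8 and 7, by rank of the middle gene, for the mean of the 2 E7 libraries against control 1 (blue) and control 2 (red) and for control 2 against control 1 (dashed). Chromosome 16 is below 0 along its whole length against both controls, chromosome 8 departs from 0 in its last part, and on chromosome 7 the E7 libraries and control 2 lie together.

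The difference was set beside that in HCT116, a colorectal cancer line in which 1 E7 clone and 4 control clones were sampled on 3 days, summed per clone. The lone E7 clone is assumed there to vary like the others. The E7 minus control difference was unlike in the lines at 401 of 11849 genes (3.38%) in edgeR, with 172 (1.45%) higher in HEK293 and 229 (1.93%) lower. That count was 35 and 39 without E7 libraries 1 and 2 of HEK293, 4701 without control 1 and 2081 without control 2. For MYC the difference between the lines did not pass: its log2 difference was -2.31 in HEK293 and -1.19 in HCT116, a gap of -1.10 (SE 0.49, edgeR adjusted p = 0.272), with a mean of 434 CPM in the HCT116 controls and 193 CPM in the E7 clone. SMAD7 had opposite signs, with 9.31 CPM in the HCT116 controls and 1.7 CPM in the HCT116 E7 clone, and a gap of 4.04 (SE 0.29, edgeR adjusted p = 0.000839). PKP3, at 154 and 136 CPM in HCT116, had a gap of -7.48 (SE 0.27, edgeR adjusted p = 1.46e-05), and MAOA, at 14.9 and 12.8 CPM there, one of -3.06 (SE 0.20, edgeR adjusted p = 0.000621). VIM had a mean of 0.671 CPM in the HCT116 controls and 22.9 CPM in the HCT116 E7 clone, a gap of -5.07 (SE 0.41, edgeR adjusted p = 0.00134), while its groups overlapped in HEK293. NEFM had 0 counts in the HCT116 libraries, so no fold is given for that line. CCN2 and PMEPA1 were higher in the E7 libraries of both lines, and ID3 was lower in both.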

How the data were processed

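The authors deposited whole-number, unnormalized counts of reads per gene in a file for each library. The submitters' processing notes name the build hg19 and, in no stated order, TopHat2, HTSeq 0.6.1, bcl2fastq, Partek 3, bedtools, BWA 0.6.2 and CASAVA. Whether counting used strand is not stated, so reads of a gene and of its antisense partner cannot be told apart. The rule that chose the 11887 listed genes is also not given. These genes held 95.6% to 97.0% of the gene counts of HCT116 libraries.

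Symbols (11567 matched) and chromosomes (11110 matched) came from NCBI tables of GRCh38.p14, which is not the files' build, so coordinates are given for RefSeq promoters alone. Genes were tested with edgeR 4.0.16 in R 4.3.3 (quasi-likelihood F test, TMM, filterByExpr at a minimum count of 10, 2-sided, Benjamini-Hochberg over all 11806 genes, threshold 0.05), with DESeq2 1.42.0 as an alternative. The code was tested on simulated data. The SE beside an edgeR value is the size of the log2 difference divided by the square root of F. It is thus derived from the test statistic. Pair ratios used a prior count of 0.5. P-values measure the spread between these libraries, which may be technical.

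The members and lists were chosen with earlier results of these data known. Named genes were those called, the 12 in each direction with the largest smallest ratio among genes past 2-fold in all 4 pairs, up to 4 per list with the smallest p plus members past 2-fold in all pairs, all 8q24 members, and those that differed most within a group. Other genes named as well-known members were added for their role. Some genes that the rule names are not reported here.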

Additional observations from a re-analysis of the deposited data

Results flagged for a closer look

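The change from control to E7 differed between HEK293 and HCT116 at 401 genes by the interaction term of edgeR at an adjusted p of 0.05, and 22 of the genes recomputed here were among them. Values are the HEK293 minus the HCT116 difference, on the log2 scale. SMAD7 had the value 4.04, IFI6 4.01, OLFM2 3.58, KLC3 2.63, DPP7 2.43, MRC2 2.32, GAD1 1.69, CCN1 1.33 and ZHX2 1.19. PNPLA4 had the value -11.46, PKP3 -7.48, PUDP -7.47, B3GALNT1 -7.44, PSMD5 -6.40, ZNF700 -6.09, VPS9D1-AS1 -3.89, VIM -5.07, MAOA -3.06, STMN3 -2.75, B4GALNT4 -1.32, AARS1 -1.01 and NIP7 -0.80. VPS9D1-AS1, AARS1 and NIP7 lie on chromosome 16 and STMN3 on chromosome 20, whose genes were lower as a whole in the HEK293 E7 libraries. The part of these shifts in the values was not tested. The fitted value of PNPLA4 rests on 0 counts in both E7 libraries of HEK293, depends on the prior count and is no bound. Leaving out an E7 library of HEK293 took the number of such genes to 35 or 39. PKP3, MAOA, VIM, SMAD7, OLFM2, DPP7, KLC3, PNPLA4, PUDP and ZNF700 passed in all 5 alternatives.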

How the results depend on the processing

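The number of genes called in HEK293 was 3 by edgeR, 463 by DESeq2, 71 with both E7 libraries summed as 1 clone and 5 without the genes of chromosomes 16 and 20 and of distal chromosome 8, a setting added after seeing the data. It ranged from 74 to 6210 when 1 library was left out, where the lone library is assumed to vary like the others: leaving out control 1 gave 6210, control 2 1914, E7 library 1 74 and E7 library 2 77. With the replicate block edgeR called 670 genes and gave MYC -2.17 (adjusted p = 1.17e-06). The library numbers pair nothing by the labels, and the deviations of same-numbered libraries correlated at 0.33 across genes. MYC was at -2.31 by DESeq2 (adjusted p = 5.18e-06) and as 1 summed clone (adjusted p = 0.0114), and between -2.82 and -1.52 with 1 library left out. All 3 called genes were called with each library left out and with the block.

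Past 2-fold in all 4 pairs there were 159 genes, 564 at 1.5-fold, 48 at 3-fold, 103 at 20 CPM, and 200 to 1024 without 1 library: 1024 without control 1, 248 without control 2, and 245 without E7 library 2. Between the controls 1050 genes became 3571 at 1.5-fold and 177 at 3-fold. The interaction count of 401 became 1175 by DESeq2 and 35 to 4701 without 1 library: 4701 and 2081 without the controls, 35 and 39 without the E7 libraries. Without scaling, the mean of the 4 medians of chromosome 16 went from -0.65 to -0.58. Of 847 values of 77 single genes, 506 kept their side of the threshold and sign, 332 gained a call, 2 lost it (both MAOA) and 7 changed sign in 4 genes of no clear difference. With 1 library left out, ASAP1 ranged from -0.12 to 0.29, LRATD2 from -0.28 to 0.57 (-0.03 without E7 library 2), VIM from -0.14 to 0.15 (-0.06 without E7 library 2) and CDKN1A from -0.33 to 0.10. VIM was at -0.001 with the E7 libraries summed. Causes were not tested.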
